A study of Arabidopsis thaliana with 8 samples.

Results

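Whole seedlings of Arabidopsis thaliana that overexpressed SPCHΔ49, a truncated form of the transcription factor SPEECHLESS (SPCH), were compared with wild type (WT) seedlings across all listed genes. The samples were taken by their labels, 3 of SPCHΔ49 and 2 of WT, which are 5 of the 8 samples of the series. The SPCHΔ49 seedlings carried the construct 35S:SPCHΔ49, in which the constitutive 35S promoter drives the truncated form in most tissues and not in the stomatal lineage alone. The WT seedlings were labelled wild type, with no construct or allele named. Seedlings of both groups were 12 days old, untreated and grown on MS medium in long days. The other 3 samples carried the same construct in the basl-2 mutant and entered only the estimate of the spread between samples. According to the series' design, the truncated form escapes the MAP kinase phosphorylation that leads to degradation of SPCH, and seedlings that overexpress it form too many stomatal lineage cells. The labels name neither the number of independent transgenic lines nor the number of seedlings in a sample. Whether replicates came from separate cultures is not stated, and p-values then reflect only the spread between these samples, which may be technical.

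SPCH is a basic helix-loop-helix (bHLH) factor that starts the stomatal lineage, in which epidermal cells divide asymmetrically before their descendants form the pairs of guard cells around a pore. It works with the bHLH partners SCRM and SCRM2, and the bHLH factors MUTE and FAMA act after it. Secreted EPF peptides, the receptor-like protein TMM, receptor kinases of the ERECTA family and a MAP kinase cascade restrain the lineage, and the polarity proteins BASL and POLAR mark one side of each dividing cell.

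The deposited values are 1 signal per gene and sample for 18855 genes, which the authors named TPM. Totals ran from 852202 to 953620 in SPCHΔ49 and from 1008090 to 1010960 in WT, so the values are not plain TPM and the read depth behind them is unknown. SPCHΔ49 replicates 1 and 3 lay farthest apart, with 8.25% of genes at least 2-fold apart, against 2.56% between replicates 1 and 2, 2.95% between replicates 2 and 3, and 1.61% between the WT samples. Markers of root tissue were low in SPCHΔ49. The summed signal of 10 root markers ran from 100.9 to 151.2 in SPCHΔ49, against 2137 to 2249 in WT. PYK10 alone made up most of each sum, at 73.1, 63.4 and 108 in SPCHΔ49, against 1916 and 2028 in WT. Of the 10, 7 fell and 0 rose, the hair cell expansins EXPA7 and EXPA18 were listed at 0 in all 3 SPCHΔ49 samples, and SCR, SHR and PHT1;1 did not pass the test. The part of the root in each result below was not tested. Summed markers of other tissues were lower in SPCHΔ49 for mesophyll (18829 to 26218, against 41015 to 41384 in WT). So were those of xylem (30.3 to 42.5, against 95.2 to 99.3) and phloem (120.8 to 145.3, against 173.8 to 190.7). The guard cell sum was higher (1652 to 1890, against 978 to 1109). Most of it came from TGG1 (not called) and GC1 (called higher), at log2 fold changes of 0.44 and 1.51. MYB60, FAMA and SLAC1 were also called higher, and KAT1 was not called, at a log2 fold change of -0.10. The GC1 and SLAC1 calls were lost with WT replicate 2 left out. The epidermis sum was lower (1673 to 1762, against 2462 to 2497), but only LTP1, called lower, had a negative log2 fold change (-1.19). The epidermis markers PDF1 (called higher), ATML1, PDF2 and FDH had log2 fold changes of 0.78, 0.34, 0.32 and 0.23. The trichome sum was lower (16.2 to 20.2, against 22.2 to 24.4), with CPC alone called, at a log2 fold change of -0.99. GL1, TRY and GL2 were not called, at log2 fold changes of -0.53, -0.01 and -0.08. In RNA of whole seedlings, fewer cells of a type and less RNA per cell cannot be told apart.

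Genes were called changed at a limma adjusted p under 0.05 on log2(signal + 1), a scale that understates the change of low genes. Of 18855 genes, 5120 were called (27.2%), of which 1867 were higher in SPCHΔ49 than in WT (9.9% of genes) and 3253 lower (17.3%). The shares of 9.9% and 17.3% are the background for all counts of lists and families below. Changes of at least 2-fold were called for 504 genes upward (2.67%) and 1551 downward (8.23%), and changes of at least 16-fold for 10 genes upward and 94 downward. The share of upward calls was 36.5% as deposited and 50.7% after quantile normalization, which moved the median log2 fold change of all genes to 0.07, against -0.01 as deposited. The calls rest on 2 WT samples. Leaving out WT replicate 1 gave 384 upward and 737 downward calls, and leaving out WT replicate 2 gave 426 and 710. Upward calls also fell to 1219 without SPCHΔ49 replicate 1 and to 968 without SPCHΔ49 replicate 2. Calls of 289 genes upward and 552 downward held in each of the 8 fits that left out 1 sample, and such calls are named stable below. A further 649 downward calls were of genes near 0 in every sample with the construct, which the filter on low values left untested once a WT sample was removed. Downward calls were most frequent at both ends of the range of levels. Of 1681 genes with a mean signal under 2, 38.9% were called lower and 5.47% higher, and of 1399 genes with a mean signal of 100 or more, 33.4% were lower and 10.6% higher. Between a mean signal of 10 and 20 the shares were 9.83% lower and 11.7% higher, of 3956 genes. The filter on low values removed 0 genes, so all listed genes already reached 1 in 2 or more samples. A gene near 0 in every sample with the construct could thus be listed only if both WT samples reached 1. The share of downward calls at the low end therefore rests in part on which genes were listed. How large that part is was not tested.

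SPCH (AT5G53210) itself had a signal of 2628, 2357 and 2488 in the SPCHΔ49 samples, against 8.2 and 5.65 in the WT samples. All 3 SPCHΔ49 samples lay far above both WT samples, with a log2 fold change of 8.31 (SE 0.19, limma adjusted p = 6.14e-06). The value per gene does not separate the construct's transcript from the endogenous one. The other 4 stomatal bHLH genes were also higher in SPCHΔ49, so that 5 of 5 rose, with a median log2 fold change of 1.96, against -0.01 over all genes.

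SCRM (AT3G26744), the partner with which SPCH binds DNA, had a signal of 251, 217 and 164 in the SPCHΔ49 samples, against 43.2 and 45.8 in the WT samples. Its samples did not overlap, and its log2 fold change was 2.2 (SE 0.19, limma adjusted p = 2.21e-04). The paralogue SCRM2 stood at 94, 79 and 52.5 in SPCHΔ49, against 18.1 and 17.9 in WT, with a log2 fold change of 1.96 (SE 0.26, limma adjusted p = 0.00179). SPCHΔ49 replicate 3 had the lowest SCRM and the lowest SCRM2 signal of its group and was still above both WT samples. MUTE, which ends the asymmetric divisions, was low in all samples at 3.17, 3.17 and 3.35 in SPCHΔ49, against 1.28 and 1.26 in WT, and its log2 fold change was 0.9 (SE 0.15, limma adjusted p = 0.00475). Its call was the one in this list that was lost when a WT sample was left out (adjusted p = 0.0648 with WT replicate 1 left out, 0.0635 with WT replicate 2 left out). FAMA, which acts in the last division and in guard cell identity, stood at 50.7, 46.9 and 46.4 in SPCHΔ49, against 23.3 and 16.4 in WT, with a log2 fold change of 1.25 (SE 0.16, limma adjusted p = 0.00139).

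**Figure D1:**
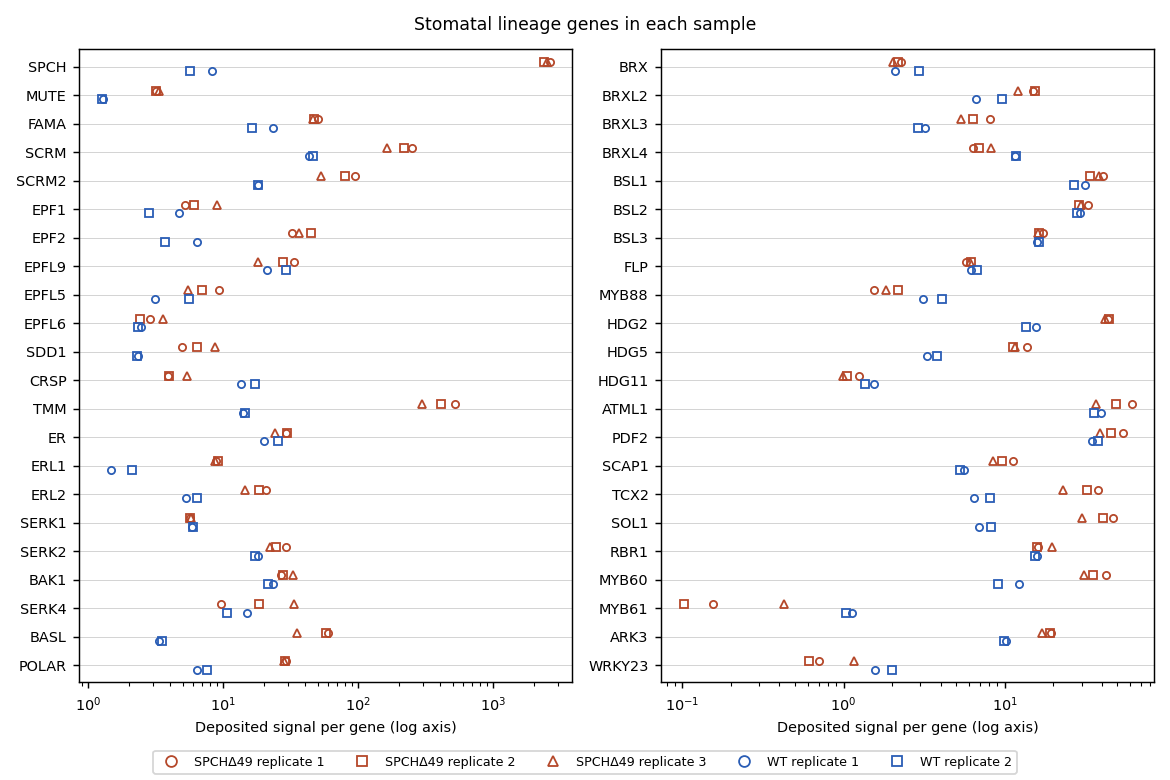
Deposited signal (log axis) of 44 stomatal lineage genes in each of 3 SPCHΔ49 samples (red) and 2 WT samples (blue), with the marker shape giving the replicate. SPCH, TMM, BASL, SCRM and EPF2 lie well apart between the genotypes, whereas EPFL9, ER, FLP, BSL3 and SERK1 lie close together.

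Of 7 listed secreted peptides and proteases, 1 rose and 1 fell, and their median log2 fold change was 0.64, or 0.31 with WT replicate 1 left out and 0.42 with WT replicate 2 left out. The riser was EPF2 (AT1G34245), the peptide that limits entry into the lineage, at 32.2, 44.6 and 36.6 in SPCHΔ49, against 6.42 and 3.72 in WT. The 3 SPCHΔ49 samples were all above both WT samples, and the log2 fold change was 2.7 (SE 0.27, limma adjusted p = 4.58e-04). The related peptide EPF1, which acts later in the lineage, stood at 5.25, 6.02 and 8.99 in SPCHΔ49, against 4.68 and 2.81 in WT and did not pass the test, with a log2 fold change of 0.71 (SE 0.33, limma adjusted p = 0.152). EPFL9, the peptide that promotes stomata and comes from inner leaf tissue, had overlapping values of 33.6, 27.7 and 18 in SPCHΔ49, against 21.2 and 29 in WT. The protease SDD1 stood at 4.95, 6.34 and 8.65 in SPCHΔ49, against 2.35 and 2.28 in WT, also without passing the test (adjusted p = 0.0887). CRSP, a protease that processes EPF2, fell to 3.92, 3.97 and 5.35 in SPCHΔ49, against 13.6 and 17.1 in WT, with a log2 fold change of -1.59 (SE 0.29, limma adjusted p = 0.00758). CRSP lost its call without a WT sample (adjusted p = 0.0548 with WT replicate 1 left out, 0.0815 with WT replicate 2 left out). The peptides EPFL5 and EPFL6 had log2 fold changes of 0.64 (SE 0.31) and 0.21 (SE 0.25) and did not pass.

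Of 8 listed receptors, 4 rose and 0 fell. The largest change was in TMM (AT1G80080), with a signal of 522, 406 and 296 in the SPCHΔ49 samples, against 14.1 and 14.4 in the WT samples. SPCHΔ49 replicate 3 was the lowest of its group and still far above both WT samples, and the log2 fold change was 4.71 (SE 0.23, limma adjusted p = 2.12e-05). The ERECTA family split. ERL1 stood at 8.8, 9.09 and 8.7 in SPCHΔ49, against 1.46 and 2.1 in WT, with a log2 fold change of 1.83 (SE 0.14, limma adjusted p = 1.25e-04), and ERL2 at 20.7, 18.5 and 14.6 in SPCHΔ49, against 5.31 and 6.38 in WT, with a log2 fold change of 1.46 (SE 0.17, limma adjusted p = 8.98e-04). ER, the member that names the family, had overlapping values of 29, 29.8 and 24.1 in SPCHΔ49, against 20.2 and 25.4 in WT and did not pass (adjusted p = 0.213). Among the co-receptors, SERK2 rose by a log2 fold change of 0.49 (SE 0.13, limma adjusted p = 0.0286), a call lost without a WT sample (adjusted p = 0.135 with WT replicate 1 left out, 0.169 with WT replicate 2 left out). SERK1 stood at 5.66, 5.67 and 5.77 in SPCHΔ49, against 5.86 and 6.01 in WT, and BAK1 and SERK4 had log2 fold changes of 0.36 (SE 0.18) and 0.5 (SE 0.6) without passing.

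Of 6 listed kinases of the cascade, MKK9 rose, by a log2 fold change of 0.83 (SE 0.25, limma adjusted p = 0.0458), and lost the call without a WT sample (adjusted p = 0.22 with WT replicate 1 left out, 0.169 with WT replicate 2 left out). YDA, MKK4, MKK5, MPK3 and MPK6 did not pass, with log2 fold changes between -0.08 and 0.29. Of 9 listed polarity genes 4 rose and 1 fell. BASL (AT5G60880) stood at 59.7, 58.1 and 35.3 in SPCHΔ49, against 3.34 and 3.52 in WT, with a log2 fold change of 3.52 (SE 0.25, limma adjusted p = 9.02e-05). POLAR, which depends on BASL for its position in the cell, varied least among the SPCHΔ49 samples, at 29.1, 28.5 and 28 in SPCHΔ49, against 6.38 and 7.61 in WT, and changed by a log2 fold change of 1.89 (SE 0.11, limma adjusted p = 4.49e-05). Among the BRX family proteins, which partner BASL at the cell cortex, BRXL2 and BRXL3 rose by log2 fold changes of 0.73 (SE 0.22, limma adjusted p = 0.0445) and 0.9 (SE 0.22, limma adjusted p = 0.0228), and BRXL4 fell with a log2 fold change of -0.64 (SE 0.14, limma adjusted p = 0.0155). All 3 of these calls were lost without a WT sample. BRX and the phosphatases BSL1, BSL2 and BSL3 did not pass, with log2 fold changes between -0.14 and 0.36.

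Late lineage and epidermal factors moved both ways, with 7 of 15 higher and 3 lower. The cell cycle regulators SOL1 (AT3G22760) and TCX2 (AT4G14770), which act at the transitions of the lineage, stood at 47.1, 41 and 30.3 in SPCHΔ49, against 6.89 and 8.23 in WT (SOL1) and at 38, 32.3 and 23.1 in SPCHΔ49, against 6.41 and 8.12 in WT (TCX2). Both genes were lowest in SPCHΔ49 replicate 3 and above WT in all 3 samples, with log2 fold changes of 2.22 (SE 0.2, limma adjusted p = 3.09e-04) and 1.94 (SE 0.2, limma adjusted p = 6.12e-04). The homeodomain factors HDG2 and HDG5 rose by log2 fold changes of 1.51 (SE 0.09, limma adjusted p = 5.28e-05) and 1.54 (SE 0.16, limma adjusted p = 5.20e-04), while ATML1, PDF2 and HDG11 of the same class did not pass, at log2 fold changes of 0.34 (SE 0.26), 0.32 (SE 0.17) and -0.23 (SE 0.11). MYB60, a guard cell MYB factor, stood at 42.7, 35.4 and 31.1 in SPCHΔ49, against 12.4 and 9.14 in WT, with a log2 fold change of 1.67 (SE 0.17, limma adjusted p = 4.69e-04). The guard cell factor SCAP1 and the armadillo-repeat kinesin ARK3 rose by log2 fold changes of 0.74 (SE 0.14) and 0.82 (SE 0.1). FLP and MYB88 are paralogous MYB factors that stop guard mother cell division. FLP stood at 5.76, 6.2 and 6.07 in SPCHΔ49, against 6.2 and 6.78 in WT and did not pass, and MYB88 fell to 1.55, 2.19 and 1.84 in SPCHΔ49, against 3.13 and 4.06 in WT, with a log2 fold change of -0.68 (SE 0.15, limma adjusted p = 0.0165). MYB61 and WRKY23 also fell, both at signals under 2 in every sample. After quantile normalization none of these 3 decreases was called, and MYB61 changed sign to a log2 fold change of 0.04. RBR1, the retinoblastoma protein, did not pass, at a log2 fold change of 0.13 (SE 0.12). With either WT sample left out the list had 6 upward calls and 0 downward ones.

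Genes of mature guard cell function changed in part. Of 28 listed members 7 rose and 1 fell, with a median log2 fold change of 0.38, against shares of 9.9% and 17.3% over all genes. The cation exchanger CHX20 stood at 28.6, 27.4 and 35.5 in SPCHΔ49, against 11.7 and 8.35 in WT, the blue light kinase BLUS1 at 16.9, 14.4 and 15.6 in SPCHΔ49, against 6.98 and 4.86 in WT, and the kinase MPK12 at 24.8, 23.2 and 23.9 in SPCHΔ49, against 9.62 and 10.4 in WT. These 3 genes were the stable risers, with log2 fold changes of 1.52 (SE 0.17), 1.28 (SE 0.16) and 1.18 (SE 0.09). The anion channel SLAC1 and the malate channel ALMT12 rose by log2 fold changes of 1.01 (SE 0.23, limma adjusted p = 0.0168) and 1.18 (SE 0.25, limma adjusted p = 0.0128), and HT1 and MPK9 also rose. The potassium channel KAT1 did not follow, at 3.98, 4.17 and 5.46 in SPCHΔ49, against 4.96 and 4.83 in WT, nor did AKT1, the kinase OST1 and the proton pump AHA1, at log2 fold changes of -0.17 (SE 0.27), 0.25 (SE 0.13) and 0.19 (SE 0.19). RBOHF, a respiratory burst oxidase, fell with a log2 fold change of -0.68 (SE 0.16, limma adjusted p = 0.0224). The list had 6 upward calls with WT replicate 1 left out, 3 with WT replicate 2 left out and 12 after quantile normalization.

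Most of the 15 largest increases were in genes outside the listed stomatal lineage. SWEET1 (AT1G21460), a glucose facilitator of the plasma membrane, had a signal of 347, 296 and 149 in the SPCHΔ49 samples, against 10.5 and 8.26 in the WT samples. All 3 SPCHΔ49 samples were above both WT samples, with replicate 3 the lowest of its group, and the log2 fold change was 4.6 (SE 0.37, limma adjusted p = 1.78e-04). ETC3 (AT4G01060), a single-repeat MYB protein that represses trichome formation and promotes root hairs, stood at 182, 206 and 149 in SPCHΔ49, against 7.99 and 10.5 in WT, with a log2 fold change of 4.13 (SE 0.21, limma adjusted p = 2.41e-05). CRK4 (AT3G45860), a cysteine-rich receptor kinase, stood at 10.3, 23.5 and 30.9 in SPCHΔ49, against 0.193 and 0.113 in WT, and IAN6 (AT1G33930), a GTP-binding protein of an immune-associated family, at 40.1, 39.4 and 27.9 in SPCHΔ49, against 1.12 and 1.3 in WT. Their log2 fold changes were 4.16 (SE 0.63, limma adjusted p = 0.00333) and 4.04 (SE 0.19, limma adjusted p = 1.88e-05). Among genes with little annotation, AT1G12845 stood at 153, 172 and 166 in SPCHΔ49, against 5.6 and 8.92 in WT, AT1G79170 at 155, 128 and 98.8 in SPCHΔ49, against 5.62 and 8.33 in WT, and the leucine-rich repeat gene AT2G15880 at 254, 234 and 195 in SPCHΔ49, against 18.3 and 19.3 in WT. The groups of these 3 genes were far apart, with log2 fold changes of 4.34 (SE 0.2), 4.01 (SE 0.3) and 3.52 (SE 0.19). AT1G75945 and AT5G10890 completed the nuclear genes among the 15 largest increases, beside those of the next paragraph.

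A set of 6 genes was at least 5 in all 3 SPCHΔ49 samples and under 0.5 in both WT samples. Of these, MBS1, a zinc finger protein of the response to singlet oxygen, stood at 24, 22.8 and 18 in SPCHΔ49 and was listed at 0 in both WT samples, and its call was lost without a WT sample (adjusted p = 0.132 with WT replicate 1 left out, 0.129 with WT replicate 2 left out). AT3G51020 stood at 13.1, 18.8 and 15.3 in SPCHΔ49 and AT2G44993 at 10.4, 9.2 and 5.19 in SPCHΔ49, and both were listed at 0 in both WT samples. The call of AT2G44993 was also lost without a WT sample (adjusted p = 0.0967 with WT replicate 1 left out, 0.0926 with WT replicate 2 left out). AT1G21470 stood at 17.2, 11.8 and 5.6 in SPCHΔ49, against 0.212 and 0.390 in WT and AT5G10880 at 14.4, 11.6 and 7.11 in SPCHΔ49, against 0.240 and 0.366 in WT. CRK4 was the sixth. The SPCHΔ49 samples of MBS1 spanned 0.39 on the log2(signal + 1) scale and its WT samples did not vary, yet its SE was 1.09. The spread used in the test of MBS1 thus came mostly from the basl-2 samples. Since a value of exactly 0 may reflect an estimate that failed, no fold is given for genes listed at 0. The plastid gene PSBK, the last of the 15 largest increases, stood at 12.6, 22.3 and 3.57 in SPCHΔ49 and was listed at 0 in both WT samples, and it lost its call without a WT sample (adjusted p = 0.0617 with WT replicate 1 left out, 0.0588 with WT replicate 2 left out).

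Genes with large increases lay beside other called genes. Of 76 nuclear genes that rose at least 4-fold, 37 (48.7%) had a neighbouring listed gene that was also called higher, against 18.7% of all 18754 nuclear genes. For genes that fell at least 4-fold the share with a neighbour called lower was 52.7% of 583, against 31.2% of all nuclear genes. In 8 pairs of neighbours both genes rose at least 4-fold. One pair was SWEET1 and AT1G21470, with log2 fold changes of 4.6 and 3.15. SCRM and its neighbour AT3G26742, an uncharacterized gene, changed by 2.2 and 2.75. The glutaredoxin gene GRXC13 and AT2G47885 changed by 3.37 and 2.84, AT5G10880 and AT5G10890 by 3.16 and 3.78, and AT1G34315 and AT1G34317 by 2.93 and 3.35. The remaining pairs were WRKY50 with PMIR2, the xyloglucan-modifying enzymes XTH25 with XTH22, and the germin-like proteins GLP2A with GLP5A, which are neighbours among the listed genes and not in the annotation. Neighbouring paralogues share sequence, and the use of strand in counting is not given in the sources used, so single values of neighbours are uncertain.

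The 15 largest decreases began with the glycine-rich protein gene AT2G05510, at a signal of 0.700, 1.44 and 3.23 in the SPCHΔ49 samples, against 290.2 and 555 in the WT samples, with a log2 fold change of -7.27 (SE 0.6, limma adjusted p = 1.93e-04). The 3 MLP-like genes MLP34, MLP328 and MLP329 stood at 9.11, 3.55 and 20.8 in SPCHΔ49, against 774 and 775 in WT (MLP34), 1.88, 1.39 and 8.99 in SPCHΔ49, against 370.4 and 324 in WT (MLP328) and 1.55, 1.4 and 4.55 in SPCHΔ49, against 248 and 248 in WT (MLP329). In all 3 genes the highest SPCHΔ49 sample was replicate 3, far below both WT samples, and MLP34 and MLP328 lost their calls without a WT sample (adjusted p = 0.0872 with WT replicate 1 left out, 0.0837 with WT replicate 2 left out for MLP34, and 0.0655 with WT replicate 1 left out, 0.0588 with WT replicate 2 left out for MLP328). CYP81F4, a cytochrome P450 of indole glucosinolate synthesis, stood at 2.47, 1.04 and 4.88 in SPCHΔ49, against 200.3 and 191 in WT, with a log2 fold change of -5.83 (SE 0.66, limma adjusted p = 8.87e-04). ATDR4 fell to 5.45, 3.27 and 42.8 in SPCHΔ49, against 778 and 710.1 in WT, and its call too was lost without a WT sample (adjusted p = 0.11 with WT replicate 1 left out, 0.102 with WT replicate 2 left out).

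A set of 7 genes was under 0.5 in all 3 SPCHΔ49 samples and at least 50 in both WT samples. The tonoplast aquaporin TIP2;3 stood at 0.108, 0.0714 and 0.137 in SPCHΔ49, against 71.2 and 71.6 in WT, and AIR1, a gene first described in root cultures, at 0, 0.282 and 0.419 in SPCHΔ49, against 84.7 and 61.6 in WT. The extensin-like genes AT3G28550, AT3G54580 and AT1G23720 stood between 0.0618 and 0.485 in SPCHΔ49, against 53.8 to 91.8 in WT. The thionin THI2.2 was at 0.148, 0.0981 and 0.252 in SPCHΔ49, against 61.2 and 52 in WT, and the terpene synthase AT3G25820, which has a near-identical neighbour, at 0.322, 0.211 and 0.244 in SPCHΔ49, against 67.2 and 64 in WT. All 7 were called lower, with log2 fold changes between -6.16 and -5.59. TIP2;3 is itself among the 10 root markers.

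**Figure D2:**
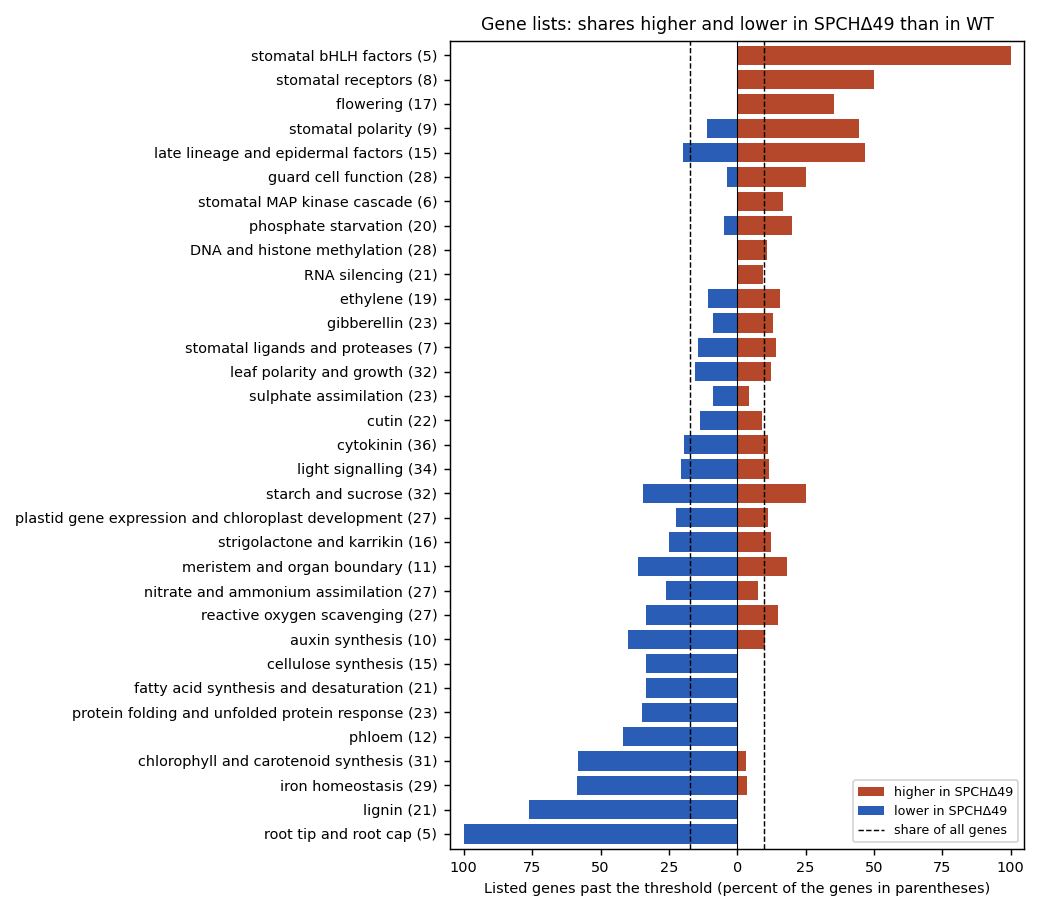
Share of each gene list called higher (red, to the right) and lower (blue, to the left) in SPCHΔ49 than in WT, in percent of the listed members given in parentheses; dashed lines mark the shares of all genes, 9.9% and 17.3%. Stomatal bHLH factors, stomatal receptors and flowering genes lie at the top, and lignin, iron homeostasis and root tip genes at the bottom.

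Most genes of lignin synthesis fell. Of 21 listed members 16 fell and 0 rose, against 17.3% of all genes lower, and the median log2 fold change was -1.24. At the entry from phenylalanine, PAL1, PAL2 and PAL4 encode phenylalanine ammonia lyases. PAL2 stood at 23.5, 22.5 and 26.6 in SPCHΔ49, against 77.3 and 71.6 in WT and PAL4 at 2.4, 1.81 and 1.94 in SPCHΔ49, against 14.2 and 15.6 in WT, with log2 fold changes of -1.58 (SE 0.15, limma adjusted p = 3.79e-04) and -2.39 (SE 0.14, limma adjusted p = 4.49e-05), and PAL1 fell with a log2 fold change of -1.67 (SE 0.37, limma adjusted p = 0.016). PAL3 did not pass, at a log2 fold change of -0.36 (SE 0.25). The 4-coumarate ligase 4CL1 stood at 41.9, 43.8 and 47 in SPCHΔ49, against 109 and 95 in WT and changed by a log2 fold change of -1.19 (SE 0.13, limma adjusted p = 6.11e-04), while 4CL3, which serves flavonoid synthesis, stood at 2.04, 3.73 and 4.87 in SPCHΔ49, against 3.31 and 2.97 in WT without passing. Among the monolignol enzymes, the methyltransferase OMT1 stood at 41.8, 48 and 62.9 in SPCHΔ49, against 232 and 155 in WT, the alcohol dehydrogenase CAD4 at 28.9, 32.4 and 36.8 in SPCHΔ49, against 89.6 and 70.9 in WT, and the reductase CCR2 at 0.199, 0.475 and 1.8 in SPCHΔ49, against 7.99 and 9.95 in WT. All SPCHΔ49 samples of these genes were below both WT samples, with log2 fold changes of -1.9 (SE 0.26), -1.26 (SE 0.17) and -2.54 (SE 0.46). CCR1, FAH1 and CAD5 did not pass although their samples did not overlap. The 3 laccases that polymerize lignin, LAC4, LAC11 and LAC17, fell with log2 fold changes of -1.45 (SE 0.21), -1.37 (SE 0.32) and -0.9 (SE 0.14). Lignin calls numbered 7 with WT replicate 1 left out and 8 with WT replicate 2 left out. The 4 listed xylem markers also fell, 4 of 4, and the part of xylem in the lignin genes was not tested.

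The cellulose synthases divided by wall type. The primary wall enzymes CESA1, CESA2, CESA3, CESA5 and CESA6 did not pass, 0 of 5, with log2 fold changes between -0.28 and 0.17, and CESA3 stood at 237, 140.0 and 121 in SPCHΔ49, against 161 and 149.7 in WT. The secondary wall enzymes CESA4, CESA7 and CESA8 fell, 3 of 3, by log2 fold changes of -0.66 (SE 0.14, limma adjusted p = 0.0132), -1.19 (SE 0.27, limma adjusted p = 0.0165) and -0.84 (SE 0.22, limma adjusted p = 0.0273). CESA7 stood at 1.86, 2.68 and 2.94 in SPCHΔ49, against 6.63 and 7.18 in WT. COBL4 and CC2 fell as well, so that 5 of 15 members of the cellulose list were lower and 0 higher. The grouping by wall type was made after the values were seen. With WT replicate 1 left out the cellulose list had 1 call and with WT replicate 2 left out it had 0, and the 3 secondary wall calls were lost in both cases.

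Most genes of iron homeostasis fell. Of 29 listed members 17 fell and 1 rose, with 10 of the decreases stable, and the median log2 fold change was -1.01, against -0.69 with WT replicate 1 left out and -0.63 with WT replicate 2 left out, when fewer members could be tested. Plants short of iron raise the bHLH factors of subgroup Ib and the IMA peptides, which in turn raise iron reduction and uptake in the root. The 4 factors of that subgroup were near 0 in SPCHΔ49. BHLH38 stood at 0.334, 0.392 and 0.509 in SPCHΔ49, against 28.3 and 62.6 in WT, BHLH39 at 0.103, 0.204 and 0.918 in SPCHΔ49, against 36.1 and 59.6 in WT, BHLH100 at 0.363, 0.601 and 2.08 in SPCHΔ49, against 44.6 and 78 in WT and BHLH101 at 1.7, 0.943 and 0.537 in SPCHΔ49, against 20.7 and 26.6 in WT. WT replicate 2 was above WT replicate 1 in all 4 genes, and both were far above every SPCHΔ49 sample. The log2 fold changes of these genes were -4.94 (SE 0.5), -5.12 (SE 0.44), -4.99 (SE 0.58) and -3.61 (SE 0.37), and the adjusted p lay between 2.25e-04 and 9.63e-04.

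The peptides IMA1, IMA2 and IMA3 changed likewise, and IMA2 stood at 2.17, 2.55 and 3.04 in SPCHΔ49, against 68 and 109 in WT. These genes changed by log2 fold changes of -4.26 (SE 0.48, limma adjusted p = 8.76e-04), -4.61 (SE 0.54, limma adjusted p = 0.00101) and -3.78 (SE 0.57, limma adjusted p = 0.00329). BTS, a ubiquitin ligase that limits the iron response, fell to 24.4, 23.8 and 27.3 in SPCHΔ49, against 64.1 and 87.3 in WT, and the phloem transporter OPT3, which carries iron between organs, to 33.7, 31.9 and 42.1 in SPCHΔ49, against 100.9 and 129 in WT. The root factor FIT and its targets IRT1 and FRO2, the ferrous iron transporter and the ferric reductase of the root surface, fell too. IRT1 stood at 0, 0.238 and 0 in SPCHΔ49, against 16.1 and 27.4 in WT, and FIT and FRO2 changed by log2 fold changes of -2.25 (SE 0.17, limma adjusted p = 1.28e-04) and -2.12 (SE 0.17, limma adjusted p = 1.67e-04). The nicotianamine synthases NAS1 and NAS4 fell with log2 fold changes of -3.13 (SE 0.82) and -1.92 (SE 0.19), while NAS3 stood at 4.12, 8.8 and 14 in SPCHΔ49, against 2.04 and 0.278 in WT without passing. The riser was the ferritin FER4, an iron storage protein, at 41.7, 41.3 and 52.1 in SPCHΔ49, against 17.3 and 18.7 in WT, with a log2 fold change of 1.27 (SE 0.18, limma adjusted p = 0.00278). FER1 and FER3 had overlapping values, at log2 fold changes of 0.54 (SE 0.39) and 0.83 (SE 0.38), and WT replicate 1 was above WT replicate 2 in both. Of the 12 regulators in the list 11 fell, a grouping by known role, while ILR3, a factor regulated mainly as a protein, stood at 108, 87.9 and 85.4 in SPCHΔ49, against 91.2 and 81.1 in WT. Roots and shoots cannot be told apart in these samples.

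**Figure D3:**
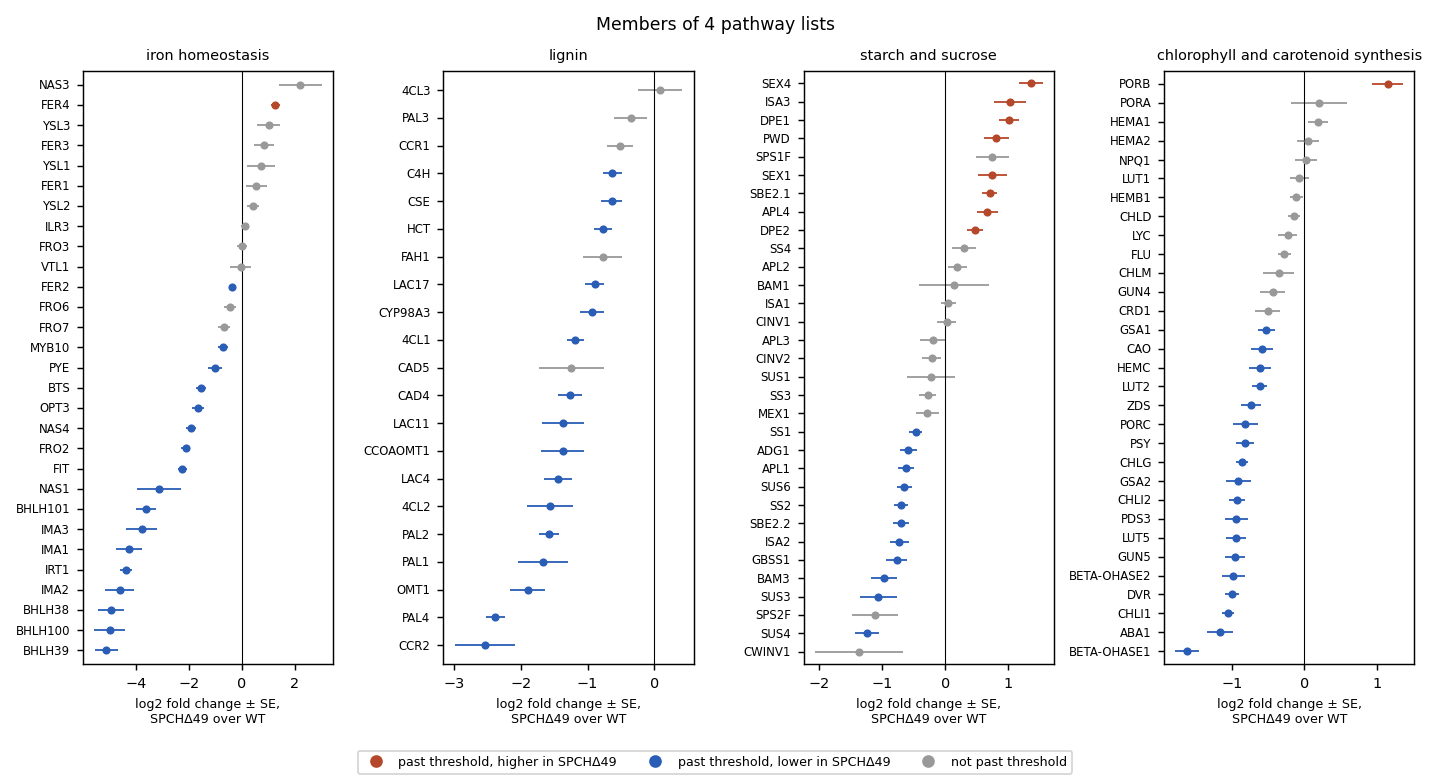
Log2 fold change of SPCHΔ49 over WT with its standard error for each member of the lists iron homeostasis, lignin, starch and sucrose, and chlorophyll and carotenoid synthesis (red, called higher; blue, called lower; grey, not past the threshold). The iron panel runs from -5.12 (BHLH39) to 2.21 (NAS3, not called), and in the starch panel SEX4, ISA3, DPE1 and PWD lie at the top.

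Nitrogen genes moved in part. Of 27 listed members 7 fell (25.9%) and 2 rose (7.41%), against 17.3% and 9.9% of all genes. NRT1.5 (AT1G32450), which loads nitrate into the root xylem, stood at 3.89, 4.12 and 4.51 in SPCHΔ49, against 83 and 103 in WT, and changed by a log2 fold change of -4.18 (SE 0.22, limma adjusted p = 2.41e-05). The ammonium transporters AMT1;2 and AMT1;3 fell with log2 fold changes of -2.41 (SE 0.19, limma adjusted p = 1.63e-04) and -2.92 (SE 0.18, limma adjusted p = 4.52e-05), whereas AMT1;1 had overlapping values of 42.4, 56.8 and 72.9 in SPCHΔ49, against 43.9 and 27.8 in WT. The plastid enzymes of ammonium assimilation, GS2 and GLU1, stood at 854, 763 and 687 in SPCHΔ49, against 1475 and 1630.4 in WT (GS2) and 138, 131 and 115 in SPCHΔ49, against 318 and 327 in WT (GLU1), with log2 fold changes of -1.02 (SE 0.14, limma adjusted p = 0.00255) and -1.33 (SE 0.2, limma adjusted p = 0.00318). The asparagine synthetases moved in opposite directions. ASN2 fell to 30.8, 43 and 47.7 in SPCHΔ49, against 196 and 195 in WT, with a log2 fold change of -2.27 (SE 0.37, limma adjusted p = 0.00473), and ASN1, which rises in darkness and sugar shortage, stood at 686, 498 and 506 in SPCHΔ49, against 249 and 316 in WT, with a log2 fold change of 0.99 (SE 0.24, limma adjusted p = 0.0232). Both asparagine synthetase calls were lost without a WT sample (adjusted p = 0.0572 with WT replicate 1 left out, 0.0551 with WT replicate 2 left out for ASN2, and 0.178 with WT replicate 1 left out, 0.0833 with WT replicate 2 left out for ASN1). The nitrate reductases NIA1 and NIA2 were below WT in every SPCHΔ49 sample but spread widely. NIA1 stood at 25.8, 45.6 and 80.4 in SPCHΔ49, against 272 and 266 in WT and did not pass (adjusted p = 0.0897). Calls of nitrogen genes numbered 0 upward and 4 downward without either WT sample. In sulphur assimilation 2 of 23 members fell (8.70%) and 1 rose (4.35%), both below the shares of all genes. After quantile normalization 5 fell and 2 rose. The root sulphate transporter SULTR1;2 fell to 2.14, 2.34 and 3.9 in SPCHΔ49, against 16 and 22.5 in WT, and 15 of the 23 had all SPCHΔ49 samples below both WT samples, against 32.7% of all genes.

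Phosphate starvation genes were higher in part and spread widely within SPCHΔ49. Of 20 listed members 4 rose and 1 fell, with a median log2 fold change of 0.77. The glycerophosphodiester phosphodiesterase GDPD1 stood at 144, 111 and 95.8 in SPCHΔ49, against 14.9 and 22.3 in WT, the stable riser, with a log2 fold change of 2.59 (SE 0.24, limma adjusted p = 3.18e-04). SPX1, a sensor that binds inositol phosphates, stood at 45.5, 56.3 and 60.6 in SPCHΔ49, against 6.27 and 12.4 in WT, and the galactolipid synthase MGD2 at 8.85, 11.2 and 12.1 in SPCHΔ49, against 2.75 and 3.12 in WT, with log2 fold changes of 2.47 (SE 0.57, limma adjusted p = 0.0185) and 1.56 (SE 0.32, limma adjusted p = 0.0119). SPX2 rose by a log2 fold change of 0.56 (SE 0.1). PHO2, which lowers phosphate uptake, fell with a log2 fold change of -0.86 (SE 0.24, limma adjusted p = 0.0351). Other genes of the response were far lower in SPCHΔ49 replicate 1 than in replicates 2 and 3. The sensor SPX3 stood at 1.68, 17.1 and 31.7 in SPCHΔ49, against 0.147 and 0.187 in WT, the phosphatase PECP1 at 2.68, 32.3 and 47.1 in SPCHΔ49, against 0.468 and 0.728 in WT, and the galactolipid synthase MGD3 at 2.12, 16.9 and 22.5 in SPCHΔ49, against 0.377 and 0.336 in WT. All SPCHΔ49 samples of these 3 genes were above both WT samples, and 0 of the 3 passed the test, with adjusted p of 0.14, 0.155 and 0.0797. Omission of WT replicate 1 left 1 upward call in the list and omission of WT replicate 2 left 2.

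Starch genes divided by direction of the pathway. Of 14 listed genes of starch synthesis 7 fell and 2 rose, and of 9 genes of starch breakdown 6 rose and 1 fell, a grouping by known role that was made after the values were seen. The granule-bound synthase GBSS1 stood at 18.4, 21.2 and 19 in SPCHΔ49, against 32.2 and 36.1 in WT, and the soluble synthase SS2 at 14, 15.4 and 14.9 in SPCHΔ49, against 25.1 and 24.1 in WT. Both subunits of leaf ADP-glucose pyrophosphorylase, ADG1 and APL1, fell with log2 fold changes of -0.59 (SE 0.14) and -0.62 (SE 0.13). The branching enzymes moved in opposite directions, with SBE2.2 at a log2 fold change of -0.71 (SE 0.13, limma adjusted p = 0.00736) and SBE2.1 at a log2 fold change of 0.7 (SE 0.12, limma adjusted p = 0.0061). In breakdown, the phosphatase SEX4 stood at 24.4, 30.3 and 32.5 in SPCHΔ49, against 8.57 and 13.2 in WT and the disproportionating enzyme DPE1 at 32.6, 35.5 and 34 in SPCHΔ49, against 13.5 and 19.7 in WT. Both calls were stable, with log2 fold changes of 1.35 (SE 0.19, limma adjusted p = 0.00235) and 1.01 (SE 0.16, limma adjusted p = 0.0037). The glucan, water dikinases SEX1 and PWD rose by log2 fold changes of 0.75 (SE 0.23) and 0.81 (SE 0.2), the debranching enzyme ISA3 by a log2 fold change of 1.03 (SE 0.25), and the cytosolic enzyme DPE2 by a log2 fold change of 0.47 (SE 0.13). WT replicate 1 was below WT replicate 2 in all 6 of these genes. The beta-amylase BAM3 went the other way, at 12.8, 11.7 and 18.21 in SPCHΔ49, against 33.4 and 24.3 in WT. Of the whole list of 32, which also holds sucrose enzymes, 8 were called higher and 11 lower. Omission of WT replicate 1 left 2 upward calls and 1 downward call in the list, and omission of WT replicate 2 left 3 and 1. The sucrose synthases SUS3, SUS4 and SUS6 fell, while the cytosolic invertases CINV1 and CINV2 did not pass.

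Genes of chlorophyll and carotenoid synthesis were lower. Of 31 listed members 18 fell and 1 rose, and 25 had all SPCHΔ49 samples below both WT samples, against 32.7% of all genes. Subunits of magnesium chelatase fell, with CHLI1 at 168, 185 and 172 in SPCHΔ49, against 362 and 364 in WT, CHLI2 at 31.3, 31.4 and 28 in SPCHΔ49, against 56.4 and 60.6 in WT and GUN5 at 297, 259 and 245 in SPCHΔ49, against 495 and 541 in WT. In log2 terms the changes were -1.05 (SE 0.08, limma adjusted p = 1.41e-04), -0.93 (SE 0.11, limma adjusted p = 0.00114) and -0.96 (SE 0.14, limma adjusted p = 0.00304). The third subunit gene, CHLD, stood at 132, 139 and 138 in SPCHΔ49, against 145 and 156 in WT and did not pass (adjusted p = 0.269). CHLG, chlorophyll synthase, fell to 66.7, 64.1 and 63.6 in SPCHΔ49, against 119.8 and 116 in WT. The riser was PORB, a light-dependent protochlorophyllide reductase, at 787, 793 and 701 in SPCHΔ49, against 265 and 442 in WT, while PORC fell to 92.6, 92.8 and 77.3 in SPCHΔ49, against 145 and 163 in WT. PORB changed by a log2 fold change of 1.15 (SE 0.21, limma adjusted p = 0.00786) and PORC by a log2 fold change of -0.81 (SE 0.17, limma adjusted p = 0.0127), and the PORB call depended on WT replicate 1 (adjusted p = 0.0519 with WT replicate 1 left out, 0.0104 with WT replicate 2 left out). Of 11 carotenoid genes 8 fell. The first enzyme PSY stood at 94.9, 96.5 and 83.5 in SPCHΔ49, against 163 and 161 in WT, and the beta-carotene hydroxylase BETA-OHASE1 at 33.8, 29.6 and 33.8 in SPCHΔ49, against 95.3 and 107 in WT, with log2 fold changes of -0.82 (SE 0.13, limma adjusted p = 0.00411) and -1.61 (SE 0.16, limma adjusted p = 5.25e-04). HEMA1, which opens the chlorophyll pathway, had overlapping values, at a log2 fold change of 0.19 (SE 0.14). Downward calls in the list numbered 8 with WT replicate 1 left out and 7 with WT replicate 2 left out. The 6 mesophyll markers fell in 4 cases, and the part of mesophyll in the pigment genes was not tested.

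Plastid gene expression changed less. Of 27 listed members 6 fell and 3 rose, near the background of 17.3% and 9.9%, and 3 downward calls and 0 upward ones were left without either WT sample. The sigma factor SIG5, which responds to blue light and stress, fell to 6.46, 9.05 and 6.17 in SPCHΔ49, against 22.9 and 30.3 in WT, and SIG2 to 44.4, 45.1 and 49.3 in SPCHΔ49, against 78 and 77.6 in WT, with log2 fold changes of -1.75 (SE 0.23, limma adjusted p = 0.00191) and -0.74 (SE 0.09, limma adjusted p = 0.00108). The regulators of chloroplast development GLK1 and GLK2 did not pass, at log2 fold changes of 0.03 (SE 0.22) and -0.13 (SE 0.2). The nuclear gene of the phage-type plastid polymerase, RPOTP, rose by a log2 fold change of 0.66 (SE 0.16, limma adjusted p = 0.0229), a call lost without a WT sample (adjusted p = 0.0837 with WT replicate 1 left out, 0.169 with WT replicate 2 left out). Of 67 plastid-encoded genes 9 were lower (13.4%) and 2 higher (2.99%), both below the 17.3% and 9.9% of all genes. Their median log2 fold change was -0.42. Of 34 mitochondrion-encoded genes 7 were higher (20.6%) and 0 lower, against 9.9% and 17.3% of all genes, with a median of 0.44. After quantile normalization 17 of the 34 were higher, with a median of 0.98. The summed signal of the mitochondrial genes was 215.4, 307.3 and 299.0 in SPCHΔ49, against 201.9 and 216.1 in WT, so SPCHΔ49 replicate 1 overlapped WT. Mitochondrial calls numbered 2 with WT replicate 1 left out and 1 with WT replicate 2 left out, and plastid downward calls numbered 2 and 1. Organelle transcripts mostly lack long poly(A) tails, and library selection can change their share.

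Among the fatty acid genes 7 of 21 fell and 0 rose. The stable decreases were in plastid desaturases, with FAD4 at 12.5, 9.87 and 9.35 in SPCHΔ49, against 48.2 and 37.3 in WT and FAD7 at 77.8, 75.5 and 73.7 in SPCHΔ49, against 132 and 129 in WT, at log2 fold changes of -1.92 (SE 0.19, limma adjusted p = 4.58e-04) and -0.78 (SE 0.07, limma adjusted p = 3.69e-04). The plastid desaturases FAD6 and FAD8 also fell with log2 fold changes of -0.55 (SE 0.11) and -1.3 (SE 0.22). The desaturase FAD2 of the endoplasmic reticulum stood at 426, 432 and 433 in SPCHΔ49, against 405 and 433 in WT and did not pass, nor did FAD3 and FAD5. Fatty acid genes had 3 downward calls without either WT sample. In the cutin list 2 of 22 members rose (9.09%) and 3 fell (13.6%), near or below the 9.9% and 17.3% of all genes. After quantile normalization 6 rose and 3 fell. LACS1 and CYP86A8 were higher by log2 fold changes of 1.15 (SE 0.3) and 0.94 (SE 0.26), and CUS2, DCR and CYP86A4 lower with log2 fold changes of -1.3 (SE 0.23), -0.92 (SE 0.2) and -1.03 (SE 0.29). All 5 of these cutin calls were lost without a WT sample.

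Hormone genes showed scattered changes. Of 36 listed cytokinin genes 7 fell and 4 rose, near the 17.3% and 9.9% of all genes. The phosphotransfer protein AHP1 stood at 0.802, 1.17 and 1.33 in SPCHΔ49, against 6.61 and 7.56 in WT, and the receptor WOL at 1.63, 2.22 and 3.26 in SPCHΔ49, against 8.41 and 10.5 in WT, with log2 fold changes of -1.95 (SE 0.14, limma adjusted p = 1.03e-04) and -1.66 (SE 0.24, limma adjusted p = 0.00282). The receptors AHK2 and AHK3 did not pass, at log2 fold changes of 0.23 (SE 0.2) and 0.06 (SE 0.08). Among the response regulators ARR9 fell with a log2 fold change of -1.08 (SE 0.17, limma adjusted p = 0.00366) and ARR16, which is active in the stomatal lineage, rose to 4.42, 7.06 and 7.4 in SPCHΔ49, against 1.39 and 1.23 in WT. ARR5, ARR6 and ARR7 were highest in SPCHΔ49 replicate 3, with ARR7 at 4.5, 7.26 and 62.5 in SPCHΔ49, against 14 and 13.8 in WT, and did not pass. The cytokinin oxidase CKX6 rose by a log2 fold change of 0.84 (SE 0.11, limma adjusted p = 0.00163). The synthesis genes IPT5 and LOG7 fell with log2 fold changes of -1.76 (SE 0.12) and -1.35 (SE 0.3). Omission of either WT sample left 1 upward call, and 3 downward calls were left by omission of WT replicate 1 and 2 by omission of WT replicate 2.

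Of 10 listed auxin synthesis genes 4 fell and 1 rose. The nitrilase NIT3 stood at 2.11, 3.91 and 4.74 in SPCHΔ49, against 16.8 and 19.4 in WT, the aminotransferase TAA1 at 3.83, 5.49 and 8.43 in SPCHΔ49, against 16.4 and 13.3 in WT, and the amidase AMI1, the riser, at 115, 110.4 and 123 in SPCHΔ49, against 46.5 and 61.5 in WT. Their log2 fold changes were -2.1 (SE 0.39, limma adjusted p = 0.00771), -1.24 (SE 0.3, limma adjusted p = 0.0225) and 1.1 (SE 0.14, limma adjusted p = 0.00127), and the AMI1 call alone was stable. Of 23 gibberellin genes 3 rose and 2 fell, with KAO1, GID1B and GASA14 higher by log2 fold changes of 0.93 (SE 0.14), 0.72 (SE 0.21) and 1.95 (SE 0.3) and the DELLA genes RGL2 and RGL3 lower with log2 fold changes of -1.21 (SE 0.15) and -0.93 (SE 0.2). None of these 5 calls was stable, omission of either WT sample left 1 upward call and 0 downward ones in the list, and quantile normalization gave 6 upward calls. The shares were near or below the 9.9% higher and 17.3% lower of all genes. Of 19 ethylene genes 3 rose (15.8%) and 2 fell (10.5%), against 9.9% and 17.3% of all genes. The transcription factor EIN3 stood at 139, 133 and 130.2 in SPCHΔ49, against 74.8 and 77.5 in WT, a stable change of 0.81 (SE 0.08, limma adjusted p = 4.07e-04), whereas its paralogue EIL1 did not pass, at a log2 fold change of 0.17 (SE 0.16). EBF1, which targets EIN3 for degradation, rose by a log2 fold change of 0.7 (SE 0.13). The EIN3 call alone was stable in the ethylene list. In the strigolactone and karrikin list 2 of 16 rose and 4 fell. The phloem-expressed genes SMXL3, SMXL4 and SMXL5 were lower with log2 fold changes of -0.74 (SE 0.11), -0.71 (SE 0.19) and -0.79 (SE 0.14), while SMXL6, SMXL7 and SMAX1 did not pass. None of the 6 calls of that list was stable, and without a WT sample at most 1 was left. The phloem list as a whole had 5 of 12 lower and 0 higher, with 10 of 12 below both WT samples in all SPCHΔ49 samples, and 0 of the 5 calls were left without a WT sample.

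Meristem and boundary genes moved in both directions, with 4 of 11 lower and 2 higher as deposited but 2 lower and 4 higher after quantile normalization. The receptor kinase CLV1, which restricts the shoot stem cell pool, stood at 46.6, 39.4 and 33.1 in SPCHΔ49, against 14.8 and 14.2 in WT, and changed by a log2 fold change of 1.38 (SE 0.16, limma adjusted p = 0.00112). The homeodomain factor PNY rose by a log2 fold change of 1.25 (SE 0.19, limma adjusted p = 0.00343). Its partners of the KNOX class split, since KNAT1 fell to 2.82, 3.58 and 3.86 in SPCHΔ49, against 8.23 and 8.83 in WT, KNAT6 fell with a log2 fold change of -0.7 (SE 0.18), and STM stood at 2.88, 4.33 and 4.31 in SPCHΔ49, against 2.5 and 1.82 in WT without passing (adjusted p = 0.0504). The PNY call was lost without WT replicate 2. In leaf polarity and growth 4 of 32 genes rose and 5 fell, close to the background, against 5 and 4 after quantile normalization. AS1 and AS2, which act together on the upper side of the leaf, moved in opposite directions, at log2 fold changes of -0.65 (SE 0.15) and 0.91 (SE 0.15). The lower side factors YAB3 and KAN2 did so as well, at log2 fold changes of 1.19 (SE 0.3) and -0.69 (SE 0.2). None of the 9 calls in leaf polarity was stable, and without a WT sample at most 1 was left. Of 5 listed root tip and root cap genes 5 fell, and TMO7 was listed at 0 in all 3 SPCHΔ49 samples, against 5.54 and 8.15 in WT. None of these 5 calls was stable, and 1 was left with WT replicate 1 left out and 0 with WT replicate 2 left out.

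Light signalling genes fell in 7 of 34 cases and rose in 4, near the 17.3% and 9.9% of all genes. Calls in that list numbered 0 upward and 2 downward with WT replicate 1 left out, and 1 and 2 with WT replicate 2 left out. The photoreceptor genes PHYA, PHYB, CRY1 and CRY2 did not pass, with log2 fold changes between 0.1 and 0.44. HYH and HY5, paired factors that promote light responses, fell to 5.68, 6.66 and 4.82 in SPCHΔ49, against 23.2 and 16.3 in WT (HYH) and 8.01, 7.69 and 6.37 in SPCHΔ49, against 13.5 and 13.6 in WT (HY5). The early light-induced protein ELIP2 stood at 1.03, 1.85 and 1.56 in SPCHΔ49, against 41.8 and 22.1 in WT. The log2 fold changes of these genes were -1.62 (SE 0.18, limma adjusted p = 8.26e-04), -0.8 (SE 0.19, limma adjusted p = 0.0191) and -3.68 (SE 0.31, limma adjusted p = 2.01e-04), and the HY5 call was lost without a WT sample (adjusted p = 0.12 with WT replicate 1 left out, 0.119 with WT replicate 2 left out). Of the 4 risers, the homeobox factor HB-2 stood at 29.4, 30.4 and 39.2 in SPCHΔ49, against 7.8 and 11 in WT, and the bHLH proteins PAR1 and PAR2 had log2 fold changes of 1.81 (SE 0.47, limma adjusted p = 0.0274) and 0.89 (SE 0.27, limma adjusted p = 0.0484). The HB-2 call was lost without WT replicate 1 and kept without WT replicate 2 (adjusted p = 0.0717 with WT replicate 1 left out, 0.0384 with WT replicate 2 left out). The PAR1 and PAR2 calls were lost without either WT sample (adjusted p = 0.172 with WT replicate 1 left out, 0.123 with WT replicate 2 left out for PAR1, and 0.209 with WT replicate 1 left out, 0.195 with WT replicate 2 left out for PAR2). The PIF factors PIF1, PIF3, PIF4, PIF5 and PIF7 did not pass.

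Flowering genes rose in 6 of 17 cases and fell in 0, and the median log2 fold change was 0.64. AGL24 (AT4G24540), a MADS-box activator of flowering, stood at 9.24, 13.4 and 16.6 in SPCHΔ49, against 2.2 and 1.75 in WT, and the repressor MAF2 at 70.2, 70.6 and 57.4 in SPCHΔ49, against 31 and 30.6 in WT. These genes changed by log2 fold changes of 2.21 (SE 0.27, limma adjusted p = 0.00128) and 1.07 (SE 0.15, limma adjusted p = 0.00231), and both calls were stable. SVP, a repressor, stood at 278, 238 and 170.4 in SPCHΔ49, against 78.6 and 89.5 in WT, and the activator SOC1 at 29.1, 42.8 and 37.9 in SPCHΔ49, against 19.7 and 26.5 in WT. SVP and SOC1 changed by log2 fold changes of 1.41 (SE 0.3, limma adjusted p = 0.0142) and 0.64 (SE 0.19, limma adjusted p = 0.0477). SPL3 and SPL4, which mark the change of phase, rose by log2 fold changes of 0.71 (SE 0.18) and 0.9 (SE 0.16). FT, the mobile flowering signal, stood at 2.31, 2.74 and 8.38 in SPCHΔ49, against 0.801 and 0.345 in WT, and FLC, a repressor, at 7.85, 3.23 and 1.62 in SPCHΔ49, against 4.76 and 5.56 in WT, both without passing. Activators and repressors were thus both among the risers. Omission of either WT sample left 2 upward calls, those of AGL24 and MAF2.

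Protein folding genes fell in 8 of 23 cases and rose in 0, with WT replicate 1 above WT replicate 2 in all 8. The luminal chaperones BIP1 and BIP2 stood at 86.1, 102 and 103 in SPCHΔ49, against 264 and 167 in WT (BIP1) and 74.5, 91.7 and 98.1 in SPCHΔ49, against 244 and 154 in WT (BIP2), and the lectin chaperone CNX1 at 104, 105.2 and 107 in SPCHΔ49, against 304 and 188 in WT. All SPCHΔ49 samples were below both WT samples, with log2 fold changes of -1.11 (SE 0.27, limma adjusted p = 0.0228), -1.14 (SE 0.31, limma adjusted p = 0.0327) and -1.18 (SE 0.25, limma adjusted p = 0.0137). BIP1 and BIP2 are near-identical, so each single value is uncertain. The sensors BZIP17, BZIP28 and BZIP60 did not pass. In the cytosol HSP70-4 fell to 14.6, 19.8 and 13.4 in SPCHΔ49, against 137 and 70.6 in WT, with a log2 fold change of -2.57 (SE 0.57, limma adjusted p = 0.0165), and HSP90.1 and HSP101 did not pass. With WT replicate 1, the higher one, left out the list had 0 calls, and with WT replicate 2 left out it had 5.

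Genes that scavenge reactive oxygen fell in 9 of 27 cases and rose in 4. With WT replicate 1 left out the calls numbered 2 upward and 1 downward, and with WT replicate 2 left out 2 and 2. The plastid iron superoxide dismutase FSD1 stood at 1428, 1303 and 1224 in SPCHΔ49, against 504 and 640.0 in WT, and the catalase CAT1 at 61.6, 63.4 and 67.4 in SPCHΔ49, against 23.8 and 21.8 in WT, both stable risers with log2 fold changes of 1.21 (SE 0.18, limma adjusted p = 0.00282) and 1.45 (SE 0.17, limma adjusted p = 9.03e-04). The copper/zinc enzyme CSD2, which changes with copper supply, stood at 24.9, 26 and 35.3 in SPCHΔ49, against 189 and 82.1 in WT without passing (adjusted p = 0.0641), and its WT samples were more than 2-fold apart. Glutathione reductase was lower, with GR at 58.5, 59.4 and 59.5 in SPCHΔ49, against 119 and 107 in WT, a log2 fold change of -0.92 (SE 0.11, limma adjusted p = 0.00129). The stress-responsive zinc finger factors ZAT10 and ZAT12 rose by log2 fold changes of 1.98 (SE 0.49) and 1.68 (SE 0.29), calls that were lost without a WT sample. CAT3 stood at 1232, 2055 and 3641 in SPCHΔ49, against 724 and 879 in WT without passing (adjusted p = 0.107).

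Calls in the silencing and chromatin lists were near the background upward and below it downward, against 9.9% and 17.3% of all genes. Of 28 listed DNA and histone methylation genes 3 rose and 0 fell, and of 21 RNA silencing genes 2 rose and 0 fell, with medians of 0.11 and 0.11. The risers were the demethylases DML2 and ELF6 and the methyltransferase ATXR7, with AGO5 and DCL2 in silencing, and without a WT sample 0 of the 5 calls were left. AGO1 stood at 99, 86.7 and 88.5 in SPCHΔ49, against 82.3 and 82.5 in WT, and MET1, the maintenance methyltransferase, at 7.1, 9.11 and 9.85 in SPCHΔ49, against 9.72 and 10.7 in WT, both without passing.

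**Figure D4:**
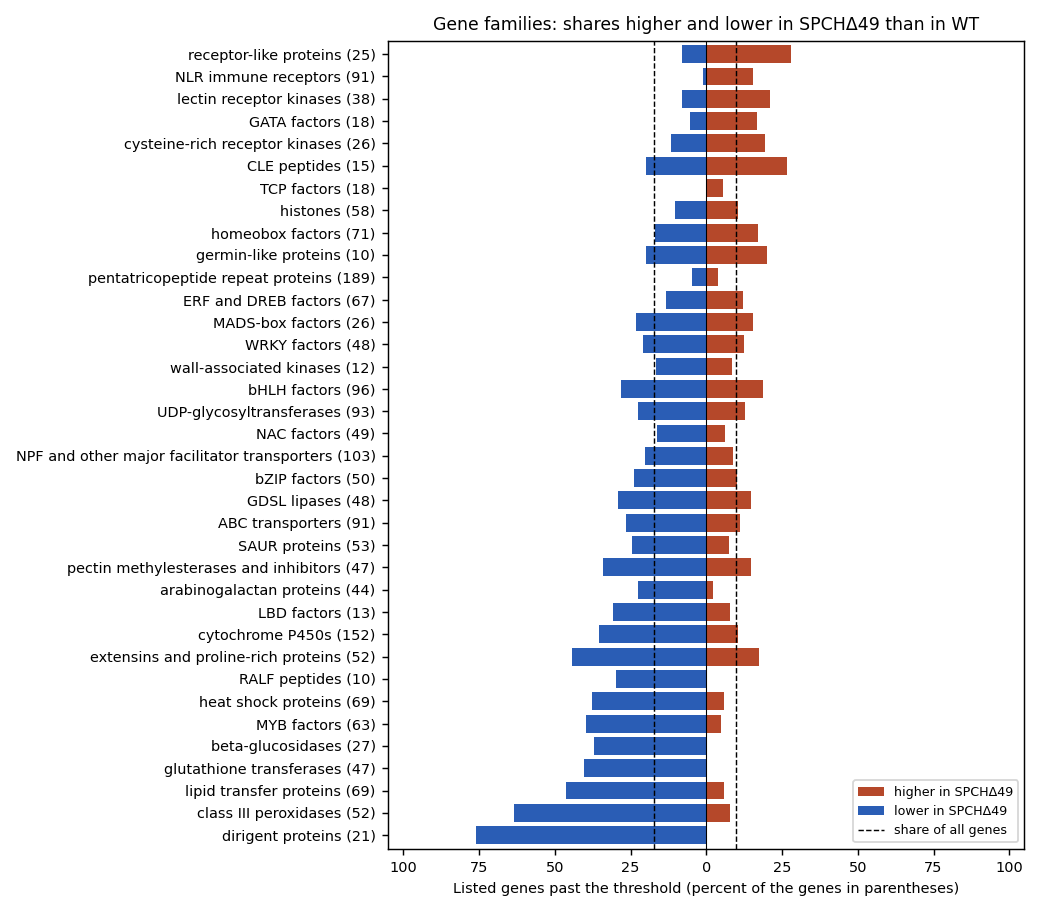
Share of each gene family called higher (red, to the right) and lower (blue, to the left) in SPCHΔ49 than in WT, in percent of the listed members given in parentheses; dashed lines mark the shares of all genes, 9.9% and 17.3%. Receptor-like proteins and NLR immune receptors lie at the top, and class III peroxidases and dirigent proteins at the bottom.

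In several of 36 gene families downward calls were more frequent than the 17.3% of all genes. Of 52 genes matched by symbol or product name as class III peroxidases, heme enzymes of the wall, 33 fell and 4 rose. Their median log2 fold change was -1.90. Over the members that could still be tested the median was -0.21 with WT replicate 1 left out and -1.0 with WT replicate 2 left out. AT5G17820 stood at 0.0883, 0.292 and 0.563 in SPCHΔ49, against 48.9 and 55.6 in WT, and the riser PER43 at 5.51, 6.19 and 6.16 in SPCHΔ49, against 1.82 and 0.869 in WT, with log2 fold changes of -5.35 (SE 0.24, limma adjusted p = 1.41e-05) and 1.6 (SE 0.23, limma adjusted p = 0.00245). Of 21 dirigent proteins, which guide the coupling of phenols, 16 fell and 0 rose, and DIR24 stood at 0.489, 0.216 and 0.832 in SPCHΔ49, against 24.8 and 28.8 in WT. Of 69 lipid transfer proteins 32 fell and 4 rose. AT3G58550 was listed at 0, 0 and 1.35 in SPCHΔ49, against 53 and 82.7 in WT, whereas LTP5 rose to 1407, 1227 and 1041 in SPCHΔ49, against 696 and 501 in WT. Of 47 glutathione transferases 19 fell and 0 rose, and of 27 beta-glucosidases 10 fell and 0 rose, with BGLU21 at 0.205, 0.108 and 0.157 in SPCHΔ49, against 38 and 47.2 in WT. Of 52 extensins and proline-rich proteins 23 fell and 9 rose. Stable downward calls numbered 3 in the peroxidases, 6 in the dirigent proteins, 12 in the lipid transfer proteins, 3 in the glutathione transferases, 1 in the beta-glucosidases and 3 in the extensins. Others were left untested without a WT sample because they were near 0 in SPCHΔ49, as most of the root markers were.

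Immune receptor genes rose more often than they fell. Of 91 NLR genes, which encode intracellular immune receptors, 14 rose and 1 fell, against 9.9% and 17.3% of all genes, and 34 rose after quantile normalization. In the NLR family 45 had all SPCHΔ49 samples above both WT samples, against 28.2% of all genes. The median log2 fold change was 0.31. None of the 14 upward calls was stable, and the family had 3 upward calls with WT replicate 1 left out and 1 with WT replicate 2 left out. Of 25 receptor-like proteins 7 rose and 2 fell, or 14 and 1 after quantile normalization, and 2 upward calls were left without either WT sample. Examples were AtRLP19 at 13.1, 12.4 and 11.1 in SPCHΔ49, against 5.23 and 3.68 in WT and AtRLP50 at a log2 fold change of 1.14 (SE 0.16). Of 38 lectin receptor kinases 8 rose and 3 fell, or 13 and 1 after quantile normalization, with LECRK44 at 14, 18.18 and 20.05 in SPCHΔ49, against 4.79 and 5.42 in WT. Upward calls of lectin receptor kinases numbered 2 with WT replicate 1 left out and 1 with WT replicate 2 left out. NLR and receptor genes come in clusters of similar sequence, and reads shared between copies make single members uncertain.

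Transcription factor families gave single large changes. The NAC factor NAC035 stood at 80.03, 75.8 and 77 in SPCHΔ49, against 10.05 and 8.08 in WT. NAC041 stood at 82.3, 93.1 and 65.3 in SPCHΔ49, against 15.6 and 11.5 in WT. Their log2 fold changes were 2.97 (SE 0.11, limma adjusted p = 8.41e-06) and 2.48 (SE 0.18, limma adjusted p = 1.03e-04). Of 49 NAC genes 8 fell (16.3%) and 3 rose (6.12%), near or below the 17.3% and 9.9% of all genes. After quantile normalization 5 fell and 6 rose. The zinc finger homeodomain factor ZHD4 stood at 189, 160.3 and 82.3 in SPCHΔ49, against 17.59 and 19.6 in WT, and HAT9, of the class of HB-2, at 52.3, 53.6 and 39.1 in SPCHΔ49, against 9.53 and 7.46 in WT. Both groups of samples were apart, with log2 fold changes of 2.8 (SE 0.35, limma adjusted p = 0.00144) and 2.37 (SE 0.18, limma adjusted p = 1.50e-04). WRKY50, a factor of salicylic acid responses, stood at 25.3, 22.4 and 17 in SPCHΔ49, against 2.7 and 2.35 in WT, and the bHLH factor ATMYC1, which acts in trichome formation, at 58.7, 40.7 and 26 in SPCHΔ49, against 5.06 and 4.32 in WT. MYB factors fell in 25 of 63 cases and rose in 3, or in 16 and 7 after quantile normalization, whereas bHLH factors moved both ways, with 27 of 96 lower and 18 higher. Downward calls of MYB factors numbered 2 with WT replicate 1 left out and 1 with WT replicate 2 left out, and their median log2 fold change of -0.31 turned to 0.04 and 0.07 over the members that could still be tested. For bHLH factors the calls numbered 8 upward and 10 downward with WT replicate 1 left out, and 7 and 8 with WT replicate 2 left out. The NAC factors had 2 upward calls and 0 downward ones without either WT sample. KNAT7, a regulator of secondary walls, fell to 0.791, 0.943 and 1.28 in SPCHΔ49, against 6.96 and 7.08 in WT, with a log2 fold change of -2.01 (SE 0.19, limma adjusted p = 4.16e-04). Among signalling peptides CLE9, which acts in the stomatal lineage and in roots, rose to 6.87, 5.94 and 6.79 in SPCHΔ49, against 2.11 and 0.903 in WT, and RALF1 fell to 1.2, 1.16 and 2.37 in SPCHΔ49, against 32.2 and 34 in WT. In log2 terms the changes were 1.63 (SE 0.25, limma adjusted p = 0.00381) and -3.76 (SE 0.3, limma adjusted p = 1.68e-04). The small auxin-induced gene SAUR71, a marker of the stomatal lineage, stood at 86.4, 46.4 and 31.7 in SPCHΔ49, against 4.87 and 6.0 in WT, with a log2 fold change of 3.00 (SE 0.4, limma adjusted p = 0.00189).

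Most of the 10 most abundant genes encoded chlorophyll-binding proteins and Rubisco in both genotypes. PSBR was also among the 10 in both, and AT1G55673 in SPCHΔ49. LHCB1.3 stood at 37726, 24173 and 24486 in SPCHΔ49, against 25042 and 27545 in WT and was the most abundant gene of both groups, with a log2 fold change of 0.1 (SE 0.41, limma adjusted p = 0.878). RBCS1A, a small subunit of Rubisco, fell to 10325, 8497 and 9143 in SPCHΔ49, against 19447 and 18809.9 in WT, with a log2 fold change of -1.04 (SE 0.26, limma adjusted p = 0.0235). The call of RBCS1A was lost without a WT sample (adjusted p = 0.106 with WT replicate 1 left out, 0.0923 with WT replicate 2 left out). RCA, the Rubisco activase, was among the 10 most abundant genes in WT and not in SPCHΔ49, at 2724, 2309.7 and 2090.2 in SPCHΔ49, against 7465 and 7185 in WT, a stable log2 fold change of -1.63 (SE 0.26, limma adjusted p = 0.00396). The RBCS and LHCB copies have similar sequences, so the value of a single copy is uncertain.

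The SPCHΔ49 samples differed widely among themselves in some genes. Of 324 genes whose SPCHΔ49 samples spanned at least 4-fold on the log2(signal + 1) scale and reached a signal of 5, replicate 1 was the lowest in 273 and replicate 3 the highest in 283. Of the 324, 19 were called against WT, against 27.2% of all genes. A wide range within SPCHΔ49 enlarges the spread used in the test. Few calls among these genes, or among the 10 of widest range, thus follow from how they were chosen. The widest range was in LEA7, a late embryogenesis abundant protein, at 0.473, 3.84 and 89.5 in SPCHΔ49, against 20.2 and 117 in WT. LEA46 stood at 0.817, 3.64 and 42 in SPCHΔ49, against 7.33 and 55.7 in WT, and PUB19, a ubiquitin ligase of water stress, at 0.823, 1.59 and 42.8 in SPCHΔ49, against 1.09 and 27.9 in WT. In these 3 genes SPCHΔ49 replicate 3 and WT replicate 2 were the high samples of their groups. PR1, the marker of salicylic acid responses, stood at 3.72, 59.6 and 158 in SPCHΔ49, against 0.549 and 0.0951 in WT, with all SPCHΔ49 samples above WT and an adjusted p of 0.125. MYC2, a factor of jasmonate responses, was listed at 0, 0 and 22.4 in SPCHΔ49, against 8.07 and 7.57 in WT. NIT2, a nitrilase, stood at 3.57, 83.6 and 172 in SPCHΔ49, against 34.7 and 49.6 in WT, so that replicate 1 was below both WT samples and the others above. The remaining genes of widest range, AT4G33467, AT1G11210, BGLU30 and OSM34, also had replicate 1 lowest and replicate 3 highest, and 0 of the 10 passed the test, with adjusted p between 0.125 and 0.982.

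**Figure D5:**
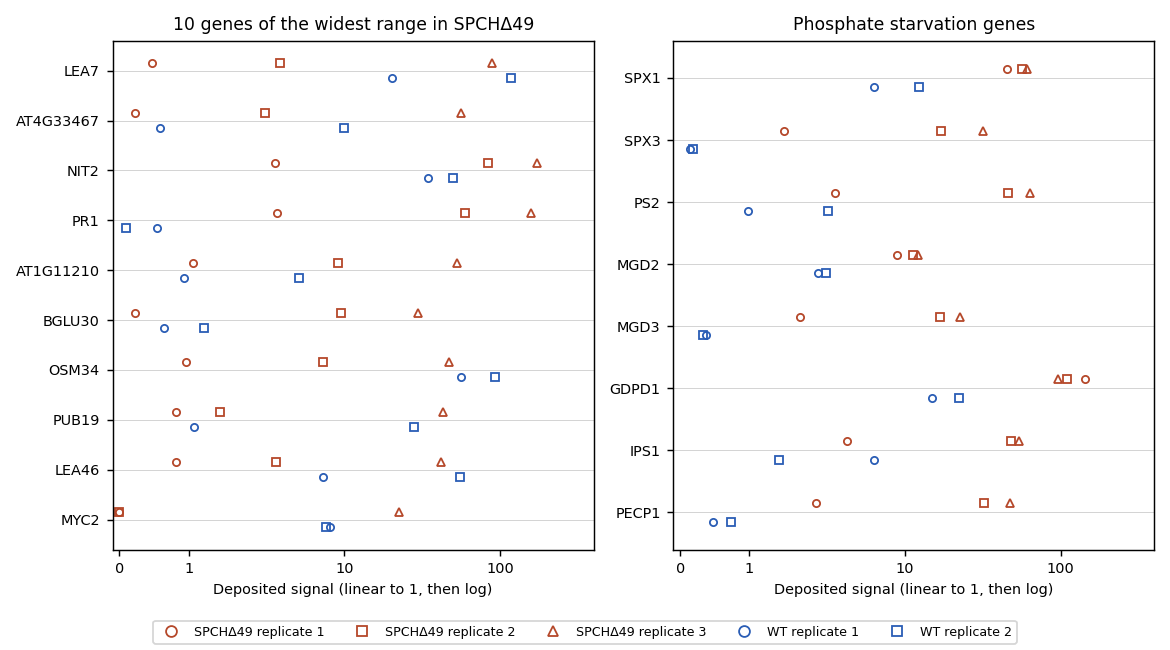
Deposited signal in each SPCHΔ49 sample (red) and WT sample (blue) of the 10 genes with the widest range within SPCHΔ49 and of 8 phosphate starvation genes; the axis is linear up to 1 and logarithmic above, and marker shapes give the replicate. SPCHΔ49 replicate 1 (circles) lies lowest of its group in every gene shown but GDPD1 and MYC2, and MYC2 is listed at 0 in replicates 1 and 2.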

How the data were processed

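RNA of whole seedlings was extracted with a Qiagen plant kit and sequenced from libraries of a TruSeq RNA kit, per the labels' protocols. The submitters' processing notes name Trimmomatic 0.38, kallisto 0.44.0 and sleuth, and no genome build or annotation is given in the sources used here. The authors deposited 1 signal value per gene in each sample under the name TPM. The WT totals of 1008090 and 1010960 are larger than plain TPM can sum to. The values were therefore treated as a rescaled signal of unknown depth, and no counting error is given. Values of the per-sample files and of the series table agree to within rounding.

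Values were analysed as log2(signal + 1) with limma 3.58.1 in R 4.3.3. The model had 1 mean per genotype over all 8 samples, so that the 3 basl-2 samples shared in the spread, an intensity trend for the variance, and p-values adjusted over 18855 genes by the Benjamini-Hochberg method, with 0.05 as the threshold. The filter asked for 2 or more samples with a signal of 1 or more and removed 0 genes with all samples present. On simulated data, 58 of 100 genes with a 2-fold change and 83 of 100 with a 4-fold change were called, with 11 false calls among 152. Only these genes were changed, all had a WT signal above 5, and the noise of a gene was equal in all groups. In the data 27.2% of genes were called, many near 0, and the SPCHΔ49 samples spread more than the WT samples. The simulated rates therefore need not hold for the calls reported here. The members and lists were chosen with earlier results of these data known. Family members were matched by patterns in gene symbols or product names, so a family may hold genes of another kind. Named genes were those of the stomatal lists, the 15 largest increases and decreases with a mean signal of at least 5 in the higher group and no overlap between groups, up to 3 risers and 3 fallers of each list by adjusted p, the 2 largest changes each way of each family, genes switched between under 0.5 and at least 5 or 50, the 10 widest ranges within SPCHΔ49 and the 10 most abundant genes of each group. Other members of the lists were named for their role after their values were seen. Gene names and neighbours came from the deposited names and the RefSeq annotation of TAIR10.1, which matched 18754 genes. Alternatives were another pseudocount, filters, scalings, the 5 samples alone, no trend, array weights, a replicate block and leaving out each sample. Some genes that these rules name are not reported here.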

Additional observations from a re-analysis of the deposited data

How the results depend on the processing

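As deposited, 5120 genes were called, 1867 higher and 3253 lower in SPCHΔ49 than in WT, with 2055 called at 2-fold or more. Leaving out 1 sample at a time gave 1121 to 5636 called genes, 384 to 2101 higher, 710 to 3535 lower and 775 to 2227 at 2-fold or more. The lowest counts came without a WT sample, when the lone WT sample was assumed to vary like the other groups. A pseudocount of 5 gave 1022 genes at 2-fold or more. Keeping genes with a mean signal of at least 5 left fewer genes to test and gave 2035 lower and 1145 at 2-fold or more. Array weights gave 11119 called genes, 5213 higher and 5906 lower, but the weights did not converge. Quantile normalization gave 5488 called genes, 2780 higher and 2708 lower, and changed the sign of MYB61 (log2 fold change 0.0388). With the replicate number as a block there were 6446 calls. The correlation of deviations between SPCHΔ49 and WT samples of the same number was -0.0405 for replicate 1 and -0.1089 for replicate 2. Deviations of 2 WT samples are of equal size and opposite sign, so these values cannot tell whether samples of the same number share an effect. Of 229 named genes called as deposited, 223 kept the call with a pseudocount of 0.1, 218 with quantile normalization and 220 with the 5 samples alone. Of the 210 that could be tested, 118 kept it with WT replicate 1 left out and 114 with WT replicate 2 left out. Of 82 upward and downward counts of calls in the lists and tissue marker sets, 30 stayed within 1.5 times with WT replicate 1 left out. With WT replicate 2 left out 28 did, against 64 under quantile normalization. Family counts were not part of this tally. The other causes of these shifts were not tested. The small number of WT samples, the unknown depth and whole seedlings limit every result.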

Other observations

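The WT samples differed from each other in a few abundant genes. The lipid transfer-like gene EARLI1 had a signal of 10.01, 41.9 and 78.3 in SPCHΔ49, against 589 and 100.3 in WT, and its relative AZI1, which acts in systemic resistance, of 54.8, 148 and 211 in SPCHΔ49, against 380.5 and 49.2 in WT. The seed storage protein gene CRA1 stood at 0.253, 0.864 and 0.435 in SPCHΔ49, against 86.5 and 1.85 in WT. None of these genes passed the test.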
